A study of Drosophila melanogaster with 36 samples.

Results

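Embryos aged 4 to 8 h were compared with embryos aged 0 to 4 h across all genes with a measured transcription start. Of 12698 genes in the deposited table, the 7594 that reached 2 RPM in 3 or more of the 8 hourly libraries were compared, and 5104 were not. RPM is the number of reads per 1000000 reads, so each value is a share of the start-site reads of its library. At that minimum, 62 genes lay just inside, with 2.01 to 2.19 RPM in the third highest library, and 33 just outside, with 1.85 to 1.99 RPM. The assay, RAMPAGE, sequences the 5′ ends of capped RNA. The study followed 36 stages of the Drosophila melanogaster life cycle in whole animals of the y; cn bw sp strain, of which 8 libraries are used here for the comparison. The older embryos are the windows 4 to 5, 5 to 6, 6 to 7 and 7 to 8 h after egg laying, and the younger ones the windows 0 to 1, 1 to 2, 2 to 3 and 3 to 4 h. No window had a second library, many embryos were pooled in each, and all were untreated. The 4 libraries of a group are neighbouring ages and not replicates, so every SD and SE below holds the change within the group as well as sampling error.

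An egg is laid with mRNA made by the mother, and the first hours of development run on this store while nuclei divide fast without much transcription. In the maternal-to-zygotic transition the store is cleared by RNA-binding proteins, deadenylases and, later, factors made by the embryo, while the embryo's own genes are switched on, first a small set at the syncytial stage and then many at cellularisation. Gastrulation, neuroblast formation and the subdivision of the mesoderm follow. The signal is abundance, which does not separate new transcription from decay, and in whole embryos fewer cells of a type cannot be told apart from less RNA per cell.

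Recovered reads ranged from 698702 to 5957345 in the 4 to 8 h libraries and from 2835056 to 9144140 in the 0 to 4 h libraries. The 7 to 8 h library was the shallowest, and 3 reads, the limit that a count of 0 allows, correspond there to 4.29 RPM, against 0.328 to 2.37 RPM in the other 7. Such limits cover counting error only. Statements below that the 2 ages do not overlap refer to the values as printed. Where a later 0 allows more than the lowest 0 to 4 h value, as for png, otu and Tpi, the order is uncertain. As a sign of RNA from older embryos, 120 cuticle genes of late embryogenesis summed to 81.3, 1155, 1637 and 979 RPM at 4 to 8 h, against 3.28, 348, 598 and 2525 RPM at 0 to 4 h, where 111, 70, 64 and 33 of them were at 0. The 3 to 4 h library thus held more of these transcripts than its neighbours. The 16 late muscle markers summed to 428, 743, 1234 and 1805 RPM at 4 to 8 h, against 268, 534, 541 and 1249 RPM at 0 to 4 h. The 20 egg shell and yolk markers reached at most 10.3 RPM at 4 to 8 h and at most 7.58 RPM at 0 to 4 h. The part of the cuticle and muscle transcripts in the results below was not tested, and counts are given with and without the 3 to 4 h library.

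Between the 2 ages, 830 genes (10.9% of those tested) passed an adjusted p of 0.05 and a 2-fold change in limma on log2(RPM + 1), and 2333 had an unadjusted p below 0.05. Of these calls 415 were higher at 4 to 8 h (5.46% of genes tested) and 415 were lower (5.46%). Falls were the steeper side at the far end: 43 genes fell by at least 16-fold and 2 rose by as much. The median log2 change was 2.54 among the genes called higher, -2.15 among those called lower and -0.06 over all genes. Genes called higher held 4.68, 6.85, 7.61 and 8.00% of the reads at 4 to 8 h, against 0.74, 1.07, 1.28 and 2.95% at 0 to 4 h. Genes called lower held 1.94, 1.92, 1.93 and 1.55% at 4 to 8 h, against 9.92, 9.70, 8.42 and 4.17% at 0 to 4 h. For 375 of the genes called higher and 371 of those called lower the 4 libraries of one age did not overlap those of the other. Over all genes, non-overlap was found for 8.89% in the higher direction and 9.89% in the lower.

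The adjusted p-values of the calls started at 0.0205 and reached up to the threshold of 0.05. Without the 3 to 4 h library limma called 1849 genes (24.3%; 898 higher, 11.8%, and 951 lower, 12.5%), among them 828 of the 830. Without the 0 to 1 h library it called 123, without 4 to 5 h 829, without 2 to 3 h 1, and without the 1 to 2, 5 to 6, 6 to 7 or 7 to 8 h library it called 0, with 1751, 1941, 1861 and 2021 genes at an unadjusted p below 0.05. In a joint fit of the 24 embryo libraries in 6 groups of 4 h, 1823 genes were called (24.0%; 942 higher, 12.4%, and 881 lower, 11.6%), 813 of the 830 among them. All 830 kept their direction in each of these fits. edgeR on whole reads recovered from the RPM steps called 607 genes, 246 higher and 361 lower, with 525 of the 830 among them. For the gene lists the counts in the joint fit, without the 3 to 4 h library and in edgeR are given beside the main one.

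**Figure D1:**
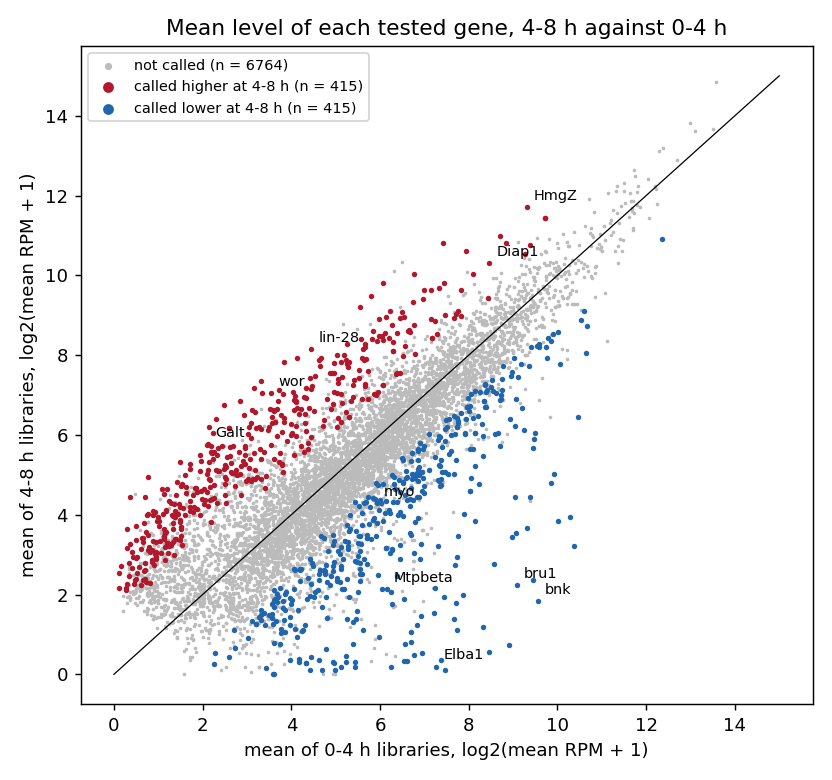
Mean RPM of each of the 7594 tested genes at 4 to 8 h (vertical axis) against 0 to 4 h (horizontal axis), both as log2(mean RPM + 1). The line marks equal means, and the 415 genes called lower reach farther from it, down to bnk at 2.55 RPM at 4 to 8 h against 754 RPM at 0 to 4 h, than the 415 called higher do.

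The genes called lower left their early level at different hours. In 103 of them (24.8%) the 2 to 3 h library was already below 50% of the higher of the first 2 libraries. In 150 (36.1%) this happened first at 3 to 4 h. In 137 (33.0%), called held to 4 h below, the level was still at 50% or more at 3 to 4 h. Some of these, such as mei-9, were already falling before 4 h. The remaining 25 (6.0%) were at least 2-fold higher at 2 to 3 or 3 to 4 h than in both earlier libraries. These sets describe the course and carry no test. Medians were 3.47, 3.94, 5.54 and 4.29 RPM at 4 to 8 h, against 119, 106, 38.5 and 9.91 RPM at 0 to 4 h, in the earliest set. In the set held to 4 h they were 33.0, 25.2, 29.7 and 21.5 RPM at 4 to 8 h, against 93.4, 89.7, 101 and 69.7 RPM at 0 to 4 h. The median log2 change was -3.19 in the earliest set, -2.07 in the set lower by 3 to 4 h, -1.58 in the set held to 4 h and -4.91 in the 25 genes raised before their fall.

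**Figure D2:**
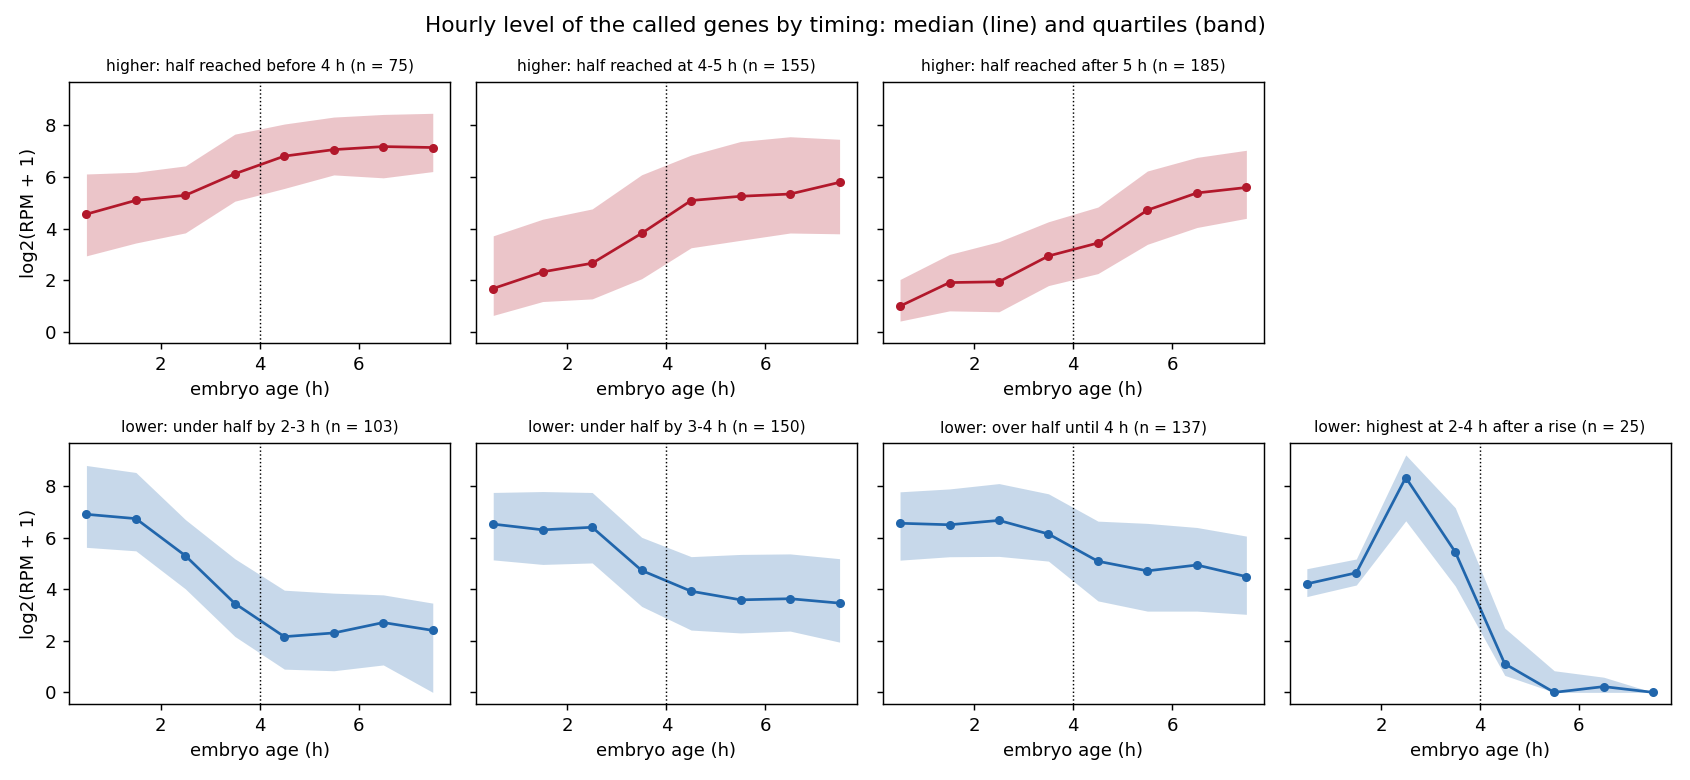
Median (line) and quartiles (band) of log2(RPM + 1) in the 8 hourly libraries for the called genes, split by when they changed, with the genes called higher at 4 to 8 h in the upper row and those called lower in the lower row. The dotted line marks 4 h; the 25 genes of the last panel had a median of 322 RPM at 2 to 3 h and of 0 RPM at 7 to 8 h.

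Genes of egg activation and meiosis, which work at fertilisation, fell in 9 of 23 tested cases (15 in the joint fit, 15 without 3 to 4 h, 10 in edgeR), none rose, and the list's median log2 change was -1.88. Their summed level was 1154, 1401, 1368 and 1914 RPM at 4 to 8 h, against 9029, 7298, 5653 and 1423 RPM at 0 to 4 h. mtrm, an inhibitor of Polo kinase in the oocyte, had 15.9, 11.8, 10.2 and 8.59 RPM at 4 to 8 h, against 1289, 1160, 74.8 and 31.9 RPM at 0 to 4 h. In mtrm the log2 change was -4.32 ± 1.09 SE (limma adjusted p = 0.038). png, the kinase of the egg-activation complex, had 0.289, 0, 0 and 0 RPM at 4 to 8 h, against 51.3, 42.6, 4.23 and 0.933 RPM at 0 to 4 h. The change in png was -3.53 ± 0.98 SE on the log2 scale (limma adjusted p = 0.0481). CanB2, a regulatory subunit of calcineurin, had 8.97, 5.52, 14.8 and 24.3 RPM at 4 to 8 h, against 453, 467, 182 and 22.9 RPM at 0 to 4 h. CanB2 changed by -3.78 ± 0.89 SE on the log2 scale (limma adjusted p = 0.0319). For mtrm and png every library at 4 to 8 h lay below every earlier one, while the 3 to 4 h value of CanB2 lay within the later range. In png, a 0 at 7 to 8 h allows up to 4.29 RPM, more than its 3 to 4 h value. All 3 were already far down at 2 to 3 or 3 to 4 h.

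Regulators of maternal mRNA translation moved the same way: 6 of 16 fell (10 in the joint fit, 10 without 3 to 4 h, 6 in edgeR) and none rose, with a median log2 change of -1.33. They differed in timing. The mRNA of wisp, the poly(A) polymerase that lengthens tails in the egg cytoplasm, had 73.8, 63.9, 79.7 and 58.7 RPM at 4 to 8 h, against 682, 644, 890 and 210 RPM at 0 to 4 h, so it was near its early level until 3 h. In wisp the log2 change was -2.95 ± 0.42 SE (limma adjusted p = 0.0205). orb, which encodes the CPEB protein that recruits such a polymerase, had 3.18, 3.94, 5.54 and 0 RPM at 4 to 8 h, against 121, 142, 27.9 and 6.41 RPM at 0 to 4 h. The change in orb was -3.69 ± 0.96 SE on the log2 scale (limma adjusted p = 0.0411). nanos, a translational repressor at the posterior pole, had 1.45, 0, 0.336 and 2.86 RPM at 4 to 8 h, against 92.6, 82.0, 14.8 and 2.21 RPM at 0 to 4 h. nanos changed by -3.73 ± 1.02 SE on the log2 scale (limma adjusted p = 0.0462). For wisp and orb the 2 ages did not overlap. For nanos the 7 to 8 h value, which is 2 reads of the shallowest library, was above the 3 to 4 h value.

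Among 30 genes of mRNA deadenylation and decay, 5 fell and 1 rose (5 and 1 in the joint fit, 6 and 1 without 3 to 4 h, 4 and 0 in edgeR), with a median log2 change of 0.10. bru1, a repressor of oskar translation (FBgn0000114, dm3 chromosome 2L, 12270910 to 12270966, plus strand at its main start), had 4.05, 5.52, 1.01 and 4.29 RPM at 4 to 8 h, against 1089, 955, 106 and 18.2 RPM at 0 to 4 h. In bru1 the log2 change was -5.64 ± 1.16 SE (limma adjusted p = 0.0247). The catalytic deadenylase gene Pop2 had 53.0, 111, 67.7 and 22.9 RPM at 4 to 8 h, against 243, 292, 183 and 108 RPM at 0 to 4 h, its 2 ages overlapped, and it was not called in the joint fit (adjusted p = 0.12). The change in Pop2 was -1.79 ± 0.49 SE on the log2 scale (limma adjusted p = 0.0465). Smg5, which acts in nonsense-mediated decay, rose, with 70.0, 75.7, 64.5 and 117 RPM at 4 to 8 h, against 8.42, 14.2, 15.5 and 63.8 RPM at 0 to 4 h. Smg5 changed by 2.03 ± 0.56 SE on the log2 scale (limma adjusted p = 0.0464). Most members of the decay machinery, 24 of 30, were not called in either direction.

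Germ cell and piRNA genes were the list with the most falls, 14 of 30 (19 in the joint fit, 18 without 3 to 4 h, 14 in edgeR), with none higher and a median log2 change of -2.01. The list sum was 893, 1101, 980 and 960 RPM at 4 to 8 h, against 6845, 6210, 2224 and 1671 RPM at 0 to 4 h. otu, a deubiquitinase of oogenesis (CG12743, dm3 chromosome X, 8383512 to 8383607, minus strand), had 0, 0, 0.504 and 0 RPM at 4 to 8 h, against 78.1, 61.5, 27.9 and 1.87 RPM at 0 to 4 h. In otu the log2 change was -4.51 ± 0.93 SE (limma adjusted p = 0.0248). pgc, which holds transcription off in the primordial germ cells, had 13.0, 4.73, 4.53 and 4.29 RPM at 4 to 8 h, against 439, 299, 87.5 and 29.0 RPM at 0 to 4 h. The change in pgc was -4.30 ± 0.78 SE on the log2 scale (limma adjusted p = 0.0205). No library of one age overlapped the other in these 2 genes, and 8 of the 14 were under 50% of their early level by 2 to 3 h. rhi, an HP1 relative that marks piRNA source loci, had 7.81, 7.89, 8.56 and 2.86 RPM at 4 to 8 h, against 57.9, 50.8, 42.0 and 28.0 RPM at 0 to 4 h, and held until 3 h. rhi changed by -2.59 ± 0.42 SE on the log2 scale (limma adjusted p = 0.0205). Because the embryos were taken whole, the few germ cells cannot be told apart from the rest of the embryo.

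Some genes for the egg's stored fuels fell, and most were not called. Of 18 lipid droplet and triglyceride genes 3 fell (9 in the joint fit, 9 without 3 to 4 h, 3 in edgeR), with a median log2 change of -1.28. mino, an acyltransferase of glycerolipid synthesis, had 17.6, 18.1, 13.8 and 28.6 RPM at 4 to 8 h, against 140, 144, 104 and 37.1 RPM at 0 to 4 h. In mino the log2 change was -2.26 ± 0.47 SE (limma adjusted p = 0.0252). Lsd-2, a perilipin that coats droplets, had 24.6, 37.1, 77.0 and 67.3 RPM at 4 to 8 h, against 783, 415, 404 and 62.0 RPM at 0 to 4 h, and its 3 to 4 h library lay within the later range. The change in Lsd-2 was -2.66 ± 0.71 SE on the log2 scale (limma adjusted p = 0.0442). Of 24 genes of fatty acid oxidation and peroxisomes 2 fell (7 in the joint fit, 6 lower and 1 higher without 3 to 4 h, 2 lower in edgeR), with a median of -0.59. The other 22 were not called. The share called lower was above the background of 5.46% in both lists, on 3 and 2 genes. Mtpbeta, a subunit of the mitochondrial trifunctional protein (CG4581, dm3 chromosome 2R, 19756051 to 19756138, minus strand), had 1.16, 3.94, 5.71 and 2.86 RPM at 4 to 8 h, against 119, 102, 48.7 and 10.4 RPM at 0 to 4 h, and no later library reached the lowest earlier one. Mtpbeta changed by -3.66 ± 0.73 SE on the log2 scale (limma adjusted p = 0.0238). Mcad, a medium-chain acyl-CoA dehydrogenase, had 3.47, 3.15, 3.02 and 4.29 RPM at 4 to 8 h, against 16.5, 13.2, 8.46 and 11.4 RPM at 0 to 4 h, a smaller change that did not overlap either. In Mcad the log2 change was -1.55 ± 0.38 SE (limma adjusted p = 0.0354).

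Sugar storage showed members on both sides. Of 10 glycogen and trehalose genes 2 fell and 2 rose (4 and 2 in the joint fit, 4 and 2 without 3 to 4 h, 2 and 2 in edgeR). Those that fell make or open glycogen. The branching enzyme AGBE had 0.289, 0.789, 1.18 and 0 RPM at 4 to 8 h, against 49.0, 37.9, 15.9 and 3.38 RPM at 0 to 4 h. The change in AGBE was -3.70 ± 0.74 SE on the log2 scale (limma adjusted p = 0.0238). The phosphorylase Glyp had 3.47, 3.15, 7.39 and 11.4 RPM at 4 to 8 h, against 165, 136, 32.1 and 10.3 RPM at 0 to 4 h. Glyp changed by -3.02 ± 0.83 SE on the log2 scale (limma adjusted p = 0.0464). Those that rose belong to trehalose, the blood sugar of insects. The synthase Tps1 had 1.74, 9.46, 8.56 and 18.6 RPM at 4 to 8 h, against 0.219, 0.747, 0 and 1.28 RPM at 0 to 4 h. In Tps1 the log2 change was 2.53 ± 0.63 SE (limma adjusted p = 0.0375). The transporter Tret1-1 (FBgn0050035, dm3 chromosome 2R, 7559439 to 7559582, plus strand) had 6.37, 19.7, 35.1 and 88.7 RPM at 4 to 8 h, against 1.64, 0.747, 2.82 and 3.85 RPM at 0 to 4 h. The change in Tret1-1 was 3.12 ± 0.72 SE on the log2 scale (limma adjusted p = 0.0305). Except for Glyp, whose 3 to 4 h library overlapped, the ages stood apart in each gene, and both trehalose genes passed 50% of their later mean only after 5 h.

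Some genes of glycolysis and 2 of the TCA cycle fell, and no respiratory chain gene was called. Of 13 glycolysis genes 4 fell (8 in the joint fit, 7 without 3 to 4 h, 6 in edgeR), with a median log2 change of -2.57, the lowest of all lists. Pfk, which catalyses the committed step, had 5.50, 5.52, 2.52 and 1.43 RPM at 4 to 8 h, against 37.0, 39.4, 28.6 and 8.98 RPM at 0 to 4 h. Pfk changed by -2.57 ± 0.56 SE on the log2 scale (limma adjusted p = 0.0282). Tpi, triosephosphate isomerase, had 0.289, 0, 0.671 and 0 RPM at 4 to 8 h, against 78.8, 61.5, 3.17 and 2.56 RPM at 0 to 4 h. In Tpi the log2 change was -3.77 ± 1.02 SE (limma adjusted p = 0.046). Of 23 TCA cycle genes 2 fell (4 in the joint fit, 5 without 3 to 4 h, 3 in edgeR), with a median of -0.40. The other 21 were not called. The share called lower was above the background of 5.46% in both lists, in the TCA list on 2 genes. The malate dehydrogenase gene Mdh1 had 24.6, 37.9, 34.4 and 18.6 RPM at 4 to 8 h, against 321, 185, 86.8 and 65.4 RPM at 0 to 4 h. The change in Mdh1 was -2.25 ± 0.50 SE on the log2 scale (limma adjusted p = 0.029). ScsbetaA, a succinyl-CoA synthetase subunit, had 13.0, 9.46, 7.22 and 5.72 RPM at 4 to 8 h, against 62.1, 43.1, 50.8 and 20.9 RPM at 0 to 4 h. ScsbetaA changed by -2.15 ± 0.43 SE on the log2 scale (limma adjusted p = 0.0238). No later library reached an earlier one in any of these 4 genes. Of 64 respiratory chain subunits limma called 0 (0 in the joint fit, 0 without 3 to 4 h, 0 by edgeR and 0 by DESeq2), with 5 genes at an unadjusted p below 0.05, a median of -0.04 and list sums of 21760 to 26990 RPM at 4 to 8 h, against 26660 to 31410 RPM at 0 to 4 h. ATPsynE, an ATP synthase subunit, had 1975 to 2424 RPM at 4 to 8 h, against 2127 to 4758 RPM at 0 to 4 h (limma adjusted p = 0.26).

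Of 34 proteasome subunits 11 fell (10 in the joint fit, 15 without 3 to 4 h, 6 in edgeR) and none rose, with a median of -0.84, and all 11 were in the set that held 50% or more of the early level until 4 h. The median-of-ratios scaling called 9. The other 23 subunits were not called. Prosalpha2, of the core particle (CG5266, dm3 chromosome 3R, 8256990 to 8257128, plus strand), had 74.6, 74.1, 74.2 and 34.4 RPM at 4 to 8 h, against 259, 272, 219 and 211 RPM at 0 to 4 h. In Prosalpha2 the log2 change was -1.95 ± 0.32 SE (limma adjusted p = 0.0205). Prosalpha6 had 58.7, 40.2, 60.9 and 18.6 RPM at 4 to 8 h, against 144, 175, 229 and 202 RPM at 0 to 4 h. The change in Prosalpha6 was -2.16 ± 0.40 SE on the log2 scale (limma adjusted p = 0.0205). Of 24 genes of APC/C, CTLH and cullin ligases 2 fell (5 in the joint fit, 4 without 3 to 4 h, 3 in edgeR). APC7, a subunit of the anaphase-promoting complex, was at 0 in all 4 libraries at 4 to 8 h, against 22.9, 15.0, 6.35 and 0.350 RPM at 0 to 4 h (limma adjusted p = 0.0463). No fold is given for it, since the 3 to 4 h value is 3 reads.

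Of 58 tested genes of redox balance and detoxification, 10 fell and 4 rose (19 and 10 in the joint fit, 18 and 5 without 3 to 4 h, 12 and 0 in edgeR). A further 101 listed genes were below the minimum. Sod1, the cytosolic superoxide dismutase, had 169, 123, 51.9 and 61.5 RPM at 4 to 8 h, against 536, 537, 801 and 473 RPM at 0 to 4 h, and held until 4 h. Sod1 changed by -2.66 ± 0.40 SE on the log2 scale (limma adjusted p = 0.0205). The peroxiredoxin gene Prx2 had 10.7, 11.8, 7.72 and 2.86 RPM at 4 to 8 h, against 427, 138, 42.0 and 21.2 RPM at 0 to 4 h, and was falling from the first hour. In Prx2 the log2 change was -3.36 ± 0.84 SE (limma adjusted p = 0.0378). GstT4, a glutathione transferase, rose and was highest at 7 to 8 h, with 15.9, 39.4, 70.5 and 156 RPM at 4 to 8 h, against 1.75, 5.73, 3.53 and 24.7 RPM at 0 to 4 h. The change in GstT4 was 2.95 ± 0.81 SE on the log2 scale (limma adjusted p = 0.0465). The ages stood apart for both genes that fell, and overlapped in 1 library for GstT4. Nucleotide synthesis had 2 falls among 19 (2 falls and 1 rise in the joint fit, without 3 to 4 h and in edgeR). awd, a nucleoside diphosphate kinase, had 351, 235, 244 and 232 RPM at 4 to 8 h, against 2439, 1995, 846 and 1119 RPM at 0 to 4 h. awd changed by -2.48 ± 0.36 SE on the log2 scale (limma adjusted p = 0.0205). bur, GMP synthetase, had 17.6, 15.8, 26.9 and 15.7 RPM at 4 to 8 h, against 57.2, 61.0, 48.7 and 33.4 RPM at 0 to 4 h. In bur the log2 change was -1.35 ± 0.34 SE (limma adjusted p = 0.038).

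Cell cycle regulators fell in 3 of 29 cases and none rose (5 falls in the joint fit, 6 falls and 1 rise without 3 to 4 h, 2 falls in edgeR), with a median of -0.07. CycJ, a cyclin of the germ line and early embryo, had 0.868, 0, 0 and 0 RPM at 4 to 8 h, against 48.5, 23.7, 3.53 and 1.40 RPM at 0 to 4 h, and 3 of its later libraries were at 0. The change in CycJ was -3.20 ± 0.90 SE on the log2 scale (limma adjusted p = 0.0486). CycA, the mitotic cyclin, had 1126, 2664, 2485 and 1388 RPM at 4 to 8 h, against 4858, 6012, 7114 and 2961 RPM at 0 to 4 h. CycA changed by -1.47 ± 0.38 SE on the log2 scale (limma adjusted p = 0.0398). Cp110, which caps centrioles and is in the centrosome list, had 40.8, 24.4, 32.7 and 38.6 RPM at 4 to 8 h, against 127, 126, 135 and 68.8 RPM at 0 to 4 h. In Cp110 the log2 change was -1.69 ± 0.33 SE (limma adjusted p = 0.0216). Mcm10 was the member called among 44 replication genes (1 in the joint fit, 3 falls and 1 rise without 3 to 4 h, 0 in edgeR with 4 at an unadjusted p below 0.05), with 53.0, 26.03, 40.5 and 41.5 RPM at 4 to 8 h, against 151, 138, 115 and 53.4 RPM at 0 to 4 h. The change in Mcm10 was -1.42 ± 0.39 SE on the log2 scale (limma adjusted p = 0.0469). Of 54 repair genes the nucleases mus81 and mei-9 fell (7 falls and 1 rise in the joint fit, 2 falls without 3 to 4 h, 1 fall in edgeR). The share called lower in the 8-library fit was below the background of 5.46% in both the replication and the repair list. Without 3 to 4 h both were below as well, and in the joint fit only the repair list was above its background of 11.6%. mus81 had 3.76, 3.15, 6.55 and 10.0 RPM at 4 to 8 h, against 73.7, 57.0, 44.1 and 9.10 RPM at 0 to 4 h. mus81 changed by -2.56 ± 0.64 SE on the log2 scale (limma adjusted p = 0.0379). mei-9 had 6.94, 3.94, 3.02 and 7.16 RPM at 4 to 8 h, against 23.4, 19.4, 14.8 and 12.0 RPM at 0 to 4 h. In mei-9 the log2 change was -1.58 ± 0.41 SE (limma adjusted p = 0.0413). Apart from mus81, whose 3 to 4 h library overlapped, the ages were separate.

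Of 55 kinetochore and spindle genes 4 rose and none fell (5 and 1 in the joint fit, 5 and 3 without 3 to 4 h, 3 and 0 in edgeR). The share called higher was close to the background of 5.46%, and below it in the joint fit and without 3 to 4 h. Nnf1a, of the kinetochore, had 79.0, 93.9, 136 and 124 RPM at 4 to 8 h, against 22.5, 21.7, 27.5 and 47.7 RPM at 0 to 4 h. The change in Nnf1a was 1.87 ± 0.35 SE on the log2 scale (limma adjusted p = 0.0207). Incenp, the scaffold of Aurora B, had 164, 199, 146 and 232 RPM at 4 to 8 h, against 84.9, 48.3, 63.8 and 133 RPM at 0 to 4 h. Incenp changed by 1.24 ± 0.35 SE on the log2 scale (limma adjusted p = 0.0496). Cap-D2, a condensin subunit, had 88.2, 101, 74.5 and 114 RPM at 4 to 8 h, against 54.6, 44.1, 13.8 and 32.9 RPM at 0 to 4 h. In Cap-D2 the log2 change was 1.50 ± 0.42 SE (limma adjusted p = 0.04998). Mink, the fourth, was lost in the joint fit (adjusted p = 0.163). Of 26 histone variant and assembly genes 2 fell, 1 rose and 23 were not called, with a median of -0.04. The share called lower was above the background of 5.46% and the share called higher below it. BigH1 was 1 of the genes that fell, and HmgZ was the gene that rose. BigH1, the linker histone of the early embryo (FBgn0038252, dm3 chromosome 3R, 10489110 to 10489252, plus strand), had 65.4, 60.7, 57.6 and 15.7 RPM at 4 to 8 h, against 1141, 876, 564 and 194 RPM at 0 to 4 h. The change in BigH1 was -3.69 ± 0.61 SE on the log2 scale (limma adjusted p = 0.0205). HmgZ, an HMG-box protein (CG17921, dm3 chromosome 2R, 17590141 to 17590682, minus strand), had 2186, 3583, 3550 and 4029 RPM at 4 to 8 h, against 128, 318, 487 and 1604 RPM at 0 to 4 h. HmgZ changed by 2.94 ± 0.64 SE on the log2 scale (limma adjusted p = 0.0278). For both genes the 3 to 4 h library was the closest to the later age without reaching it.

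A small set peaked inside the first 4 h and was almost gone after it. Of the 25 genes raised at 2 to 4 h, 76.0% have a single exon, against 10.0% of all genes tested, and their median gene span is 1018 bases, against 2860 bases. The median level of the set was 1.16, 0, 0.168 and 0 RPM at 4 to 8 h, against 17.5, 23.9, 322 and 42.6 RPM at 0 to 4 h. Elba1, a subunit of an insulator-binding complex of the blastoderm (CG12205, dm3 chromosome 2L, 4684385 to 4684406, minus strand), had 0.579, 0, 0 and 0 RPM at 4 to 8 h, against 12.9, 22.2, 336 and 239 RPM at 0 to 4 h. In Elba1 the log2 change was -5.995 ± 0.97 SE (limma adjusted p = 0.0205). dunk, which controls myosin at the cellularisation front (FBgn0083973, dm3 chromosome 2L, 22151694 to 22151765, plus strand), had 0.868, 0.789, 1.18 and 0 RPM at 4 to 8 h, against 12.4, 15.4, 316 and 32.6 RPM at 0 to 4 h. The change in dunk was -4.58 ± 0.90 SE on the log2 scale (limma adjusted p = 0.0228). nullo, needed for the furrow junctions, had 0.868, 0, 0.168 and 0 RPM at 4 to 8 h, against 24.8, 20.9, 322 and 2.21 RPM at 0 to 4 h, so its high level was seen in 1 library. nullo changed by -4.51 ± 1.13 SE on the log2 scale (limma adjusted p = 0.0379).

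Other genes of this set were term, bard, zen, Sry-alpha and scw. The gene term had 2.89, 0, 0.168 and 0 RPM at 4 to 8 h, against 14.9, 25.7, 162 and 211 RPM at 0 to 4 h. In term the log2 change was -5.40 ± 0.88 SE (limma adjusted p = 0.0205). bard had 9.84, 1.58, 0 and 0 RPM at 4 to 8 h, against 20.0, 39.6, 492 and 142 RPM at 0 to 4 h. The change in bard was -5.26 ± 1.05 SE on the log2 scale (limma adjusted p = 0.0238). term differed in being highest at 3 to 4 h and bard at 2 to 3 h. The homeobox gene zen, of the dorsal ectoderm and amnioserosa, had 0.579, 0, 0 and 0 RPM at 4 to 8 h, against 4.05, 8.22, 87.8 and 34.8 RPM at 0 to 4 h. zen changed by -4.13 ± 0.82 SE on the log2 scale (limma adjusted p = 0.0238). Sry-alpha, an actin regulator of cellularisation, had 0.289, 0, 0 and 0 RPM at 4 to 8 h, against 1.97, 6.73, 70.9 and 42.6 RPM at 0 to 4 h. In Sry-alpha the log2 change was -3.94 ± 0.92 SE (limma adjusted p = 0.0307). scw, a BMP ligand of the blastoderm, had 0.289, 0, 0.168 and 0 RPM at 4 to 8 h, against 3.39, 5.73, 26.1 and 3.62 RPM at 0 to 4 h. The change in scw was -2.81 ± 0.62 SE on the log2 scale (limma adjusted p = 0.0283). None of the 5 had a later library that reached an earlier one, and 1 read of the 7 to 8 h library is 1.43 RPM, so a 0 there allows up to 4.29 RPM. In adults the set had a median of 0 RPM in females and of 0 RPM in males.

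Among genes in none of the lists, the largest falls other than these early peaks were of mixed function. CtsK1, a cathepsin (CG8947, dm3 chromosome 3L, 13987275 to 13987429, plus strand), had 4.63, 3.94, 1.01 and 7.16 RPM at 4 to 8 h, against 1383, 1157, 236 and 36.3 RPM at 0 to 4 h. CtsK1 changed by -6.22 ± 1.03 SE on the log2 scale (limma adjusted p = 0.0205). cyc, the partner of Clock in the circadian clock, had 0.579, 0, 1.18 and 2.86 RPM at 4 to 8 h, against 423, 372, 54.0 and 3.03 RPM at 0 to 4 h. In cyc the log2 change was -5.33 ± 1.30 SE (limma adjusted p = 0.0354). Mov10, an RNA helicase, had 4.05, 0, 0.336 and 0 RPM at 4 to 8 h, against 197, 168, 38.5 and 7.81 RPM at 0 to 4 h. The change in Mov10 was -5.18 ± 0.98 SE on the log2 scale (limma adjusted p = 0.0216). In all 3 the 2 to 3 h library was well below the first 2, and none overlapped the later age as printed. For cyc the 7 to 8 h value, 2 reads of the shallowest library, was just below the 3 to 4 h value, so their order is uncertain. Akr1B, an aldo-keto reductase, had 2.02, 3.15, 1.85 and 0 RPM at 4 to 8 h, against 218, 201, 51.5 and 7.93 RPM at 0 to 4 h. Akr1B changed by -4.79 ± 0.96 SE on the log2 scale (limma adjusted p = 0.0238). yin, an oligopeptide transporter, had 0.289, 0, 1.51 and 0 RPM at 4 to 8 h, against 286, 193, 10.9 and 2.33 RPM at 0 to 4 h. In yin the log2 change was -4.84 ± 1.28 SE (limma adjusted p = 0.0424). Calx, a sodium-calcium exchanger, had 0, 0.789, 0.671 and 0 RPM at 4 to 8 h, against 71.6, 59.8, 12.3 and 2.10 RPM at 0 to 4 h. The change in Calx was -3.98 ± 0.92 SE on the log2 scale (limma adjusted p = 0.0305). These 3 also belonged to the set that was lower by 2 to 3 h.

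**Figure D3:**
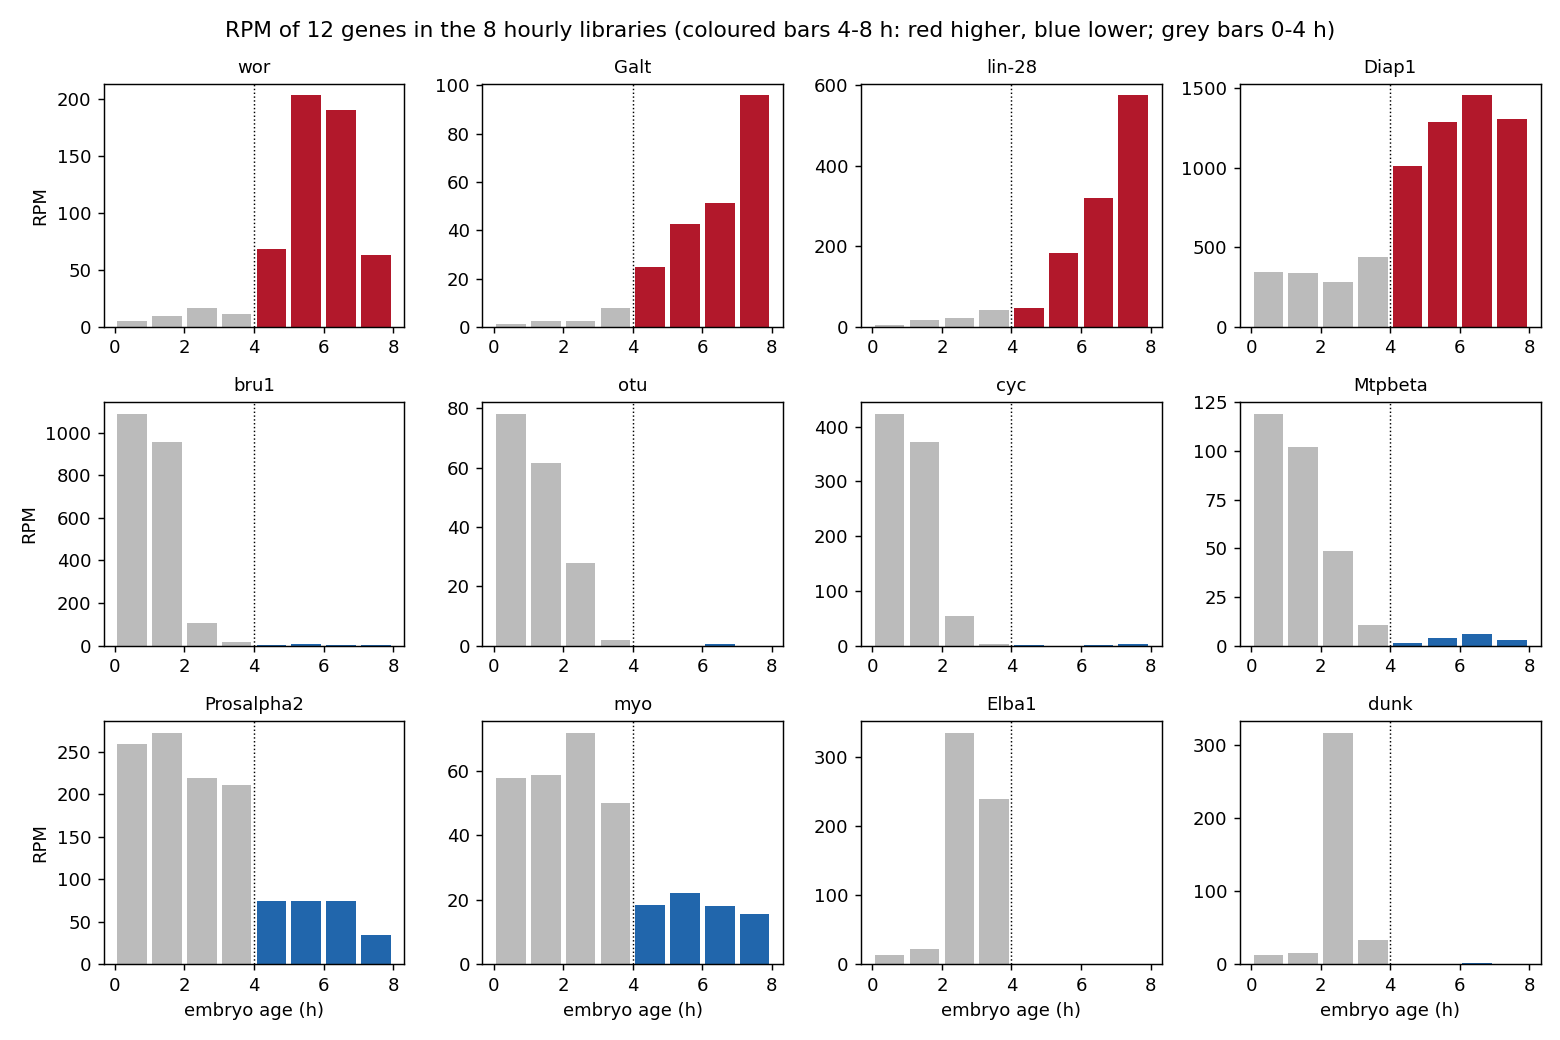
RPM of 12 genes in the 8 hourly libraries, with coloured bars for 4 to 8 h (red where called higher, blue where called lower) and grey bars for 0 to 4 h; each panel has its own vertical scale. The upper row rose, the middle row was lower before 4 h, and of the bottom row Prosalpha2 and myo stepped down at 4 h while Elba1 and dunk were high only at 2 to 4 h among these libraries.

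The genes called higher reached their level at different hours. The highest of the 8 libraries was 7 to 8 h for 226 of 415 (54.5%), against 49.0% of the 3187 tested genes that were highest at 4 to 8 h, and 6 to 7, 5 to 6 and 4 to 5 h for 120, 58 and 11. In 75 (18.1%) a library before 4 h already reached 50% of the later mean, in 155 (37.3%) the 4 to 5 h library was the first to do so, and in 185 (44.6%) this came after 5 h. The last set had medians of 9.84, 25.2, 40.6 and 47.2 RPM at 4 to 8 h, against 0.984, 2.74, 2.82 and 6.65 RPM at 0 to 4 h.

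Genes of the Enhancer of split and Bearded families, most of them direct targets of Notch signalling, rose in 12 of 15 cases (12 in the joint fit, 13 without 3 to 4 h), none fell, and their median log2 change was 2.97, the highest of all lists, while edgeR called 6. Their sum was 6428, 9685, 7247 and 6814 RPM at 4 to 8 h, against 295, 627, 1192 and 2944 RPM at 0 to 4 h. E(spl)m2-BFM, a Bearded-type gene, had 65.1, 173, 112 and 172 RPM at 4 to 8 h, against 3.28, 13.7, 16.6 and 18.9 RPM at 0 to 4 h. E(spl)m2-BFM changed by 3.33 ± 0.54 SE on the log2 scale (limma adjusted p = 0.0205). E(spl)mdelta-HLH, a repressor of the bHLH type, had 782, 1905, 799 and 109 RPM at 4 to 8 h, against 31.6, 103, 3.17 and 125 RPM at 0 to 4 h. In E(spl)mdelta-HLH the log2 change was 4.04 ± 1.13 SE (limma adjusted p = 0.0486). The second rose and dropped within the window, so that its 7 to 8 h library lay below the 3 to 4 h library. Of 25 components of the Notch pathway itself 2 rose and none fell (6 and 1 in the joint fit, 6 and 3 without 3 to 4 h, 3 and 0 in edgeR), with a median of 0.09. The ligand gene Ser had 10.1, 20.5, 54.9 and 47.2 RPM at 4 to 8 h, against 1.20, 4.24, 3.88 and 7.00 RPM at 0 to 4 h. The change in Ser was 2.62 ± 0.61 SE on the log2 scale (limma adjusted p = 0.0315). spdo, a Notch regulator in asymmetric divisions, had 52.1, 109, 78.9 and 78.7 RPM at 4 to 8 h, against 5.03, 8.22, 16.6 and 22.9 RPM at 0 to 4 h. spdo changed by 2.66 ± 0.47 SE on the log2 scale (limma adjusted p = 0.0205).

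Proneural and neuroblast factors rose in 15 of 38 cases (28 in the joint fit, 26 without 3 to 4 h, 11 in edgeR), none fell, and the median was 2.02. wor, a Snail-type factor of neuroblasts (CG4158, dm3 chromosome 2L, 15425564 to 15425587, minus strand), had 68.0, 204, 190 and 63.0 RPM at 4 to 8 h, against 5.36, 9.47, 16.9 and 11.0 RPM at 0 to 4 h, highest in the middle of the window. In wor the log2 change was 3.39 ± 0.51 SE (limma adjusted p = 0.0205). sens, a zinc finger factor of sensory precursors, had 18.5, 72.6, 99.0 and 122 RPM at 4 to 8 h, against 1.42, 3.49, 13.1 and 12.2 RPM at 0 to 4 h. The change in sens was 3.27 ± 0.73 SE on the log2 scale (limma adjusted p = 0.029). insc, which orients the neuroblast spindle, had 22.6, 44.2, 63.8 and 54.4 RPM at 4 to 8 h, against 2.73, 2.74, 3.17 and 15.5 RPM at 0 to 4 h. insc changed by 2.99 ± 0.57 SE on the log2 scale (limma adjusted p = 0.0216). The ages were apart in all 3. Outside the lists, onecut, pdm3, axed and lin-28 were among the 15 highest changes of named genes that averaged 20 RPM or more at 4 to 8 h and whose groups did not overlap. onecut, a cut-homeodomain factor, had 27.2, 61.5, 104 and 188 RPM at 4 to 8 h, against 2.30, 6.23, 10.6 and 12.9 RPM at 0 to 4 h. In onecut the log2 change was 3.29 ± 0.65 SE (limma adjusted p = 0.0225). pdm3, a POU factor, had 17.4, 44.2, 44.6 and 77.3 RPM at 4 to 8 h, against 0.984, 3.24, 3.53 and 6.76 RPM at 0 to 4 h. The change in pdm3 was 3.32 ± 0.56 SE on the log2 scale (limma adjusted p = 0.0205). axed, which acts in axon degeneration, had 17.4, 86.8, 104 and 147 RPM at 4 to 8 h, against 2.19, 5.23, 8.11 and 11.2 RPM at 0 to 4 h. axed changed by 3.37 ± 0.68 SE on the log2 scale (limma adjusted p = 0.0238). lin-28, an RNA-binding protein of developmental timing (CG17334, dm3 chromosome 3L, 5647760 to 5647816, plus strand), had 47.2, 183, 320 and 575 RPM at 4 to 8 h, against 4.59, 15.9, 21.2 and 41.7 RPM at 0 to 4 h, the steepest climb of these within the window. In lin-28 the log2 change was 3.54 ± 0.80 SE (limma adjusted p = 0.0296).

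Mesoderm factors rose in 11 of 39 cases (27 in the joint fit, 30 without 3 to 4 h, 6 in edgeR), none fell, and the median was 2.14. bap, an NK homeobox gene of the visceral mesoderm, had 40.5, 183, 97.5 and 71.6 RPM at 4 to 8 h, against 2.62, 4.24, 18.3 and 19.2 RPM at 0 to 4 h. The change in bap was 3.21 ± 0.67 SE on the log2 scale (limma adjusted p = 0.0253). bin, a forkhead gene of the same tissue, had 12.7, 93.1, 43.3 and 57.2 RPM at 4 to 8 h, against 1.20, 4.98, 3.17 and 8.16 RPM at 0 to 4 h. bin changed by 3.17 ± 0.65 SE on the log2 scale (limma adjusted p = 0.0247). Both were highest at 5 to 6 h. Of the late muscle markers, whose sums are given above, 1 of 13 tested members rose (2 in the joint fit, 2 without 3 to 4 h, 0 in edgeR with 1 at an unadjusted p below 0.05). This member, Act87E, had 64.8, 42.6, 226 and 74.4 RPM at 4 to 8 h, against 7.00, 20.4, 3.88 and 34.3 RPM at 0 to 4 h. In Act87E the log2 change was 2.68 ± 0.70 SE (limma adjusted p = 0.0407). Of 16 endoderm and gut factors 4 rose and 1 fell (8 and 1 in the joint fit, 8 and 1 without 3 to 4 h, 2 and 1 in edgeR). The 4 that rose include Dr, a homeobox gene of the lateral nervous system. GATAe, of the endoderm, had 24.6, 47.3, 25.7 and 37.2 RPM at 4 to 8 h, against 0.656, 1.99, 5.29 and 7.70 RPM at 0 to 4 h. The change in GATAe was 3.05 ± 0.56 SE on the log2 scale (limma adjusted p = 0.0205). bowl, an odd-skipped type factor of the hindgut and foregut, had 202, 353, 379 and 428 RPM at 4 to 8 h, against 8.31, 17.7, 59.6 and 99.1 RPM at 0 to 4 h. bowl changed by 3.36 ± 0.68 SE on the log2 scale (limma adjusted p = 0.0238). Neither gene had a later library below an earlier one.

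Tracheal and epidermal factors rose in 7 of 23 cases (15 in the joint fit, 15 without 3 to 4 h, 4 in edgeR), none fell, and the median was 1.98. The 3 Iroquois genes, which encode homeodomain factors and are neighbours of each other on 3L, all rose. ara had 28.4, 59.9, 179 and 193 RPM at 4 to 8 h, against 2.95, 6.73, 10.9 and 27.2 RPM at 0 to 4 h. In ara the log2 change was 3.14 ± 0.74 SE (limma adjusted p = 0.0322). caup had 6.08, 28.4, 24.3 and 30.1 RPM at 4 to 8 h, against 0.984, 0.747, 1.41 and 5.13 RPM at 0 to 4 h. The change in caup was 2.91 ± 0.61 SE on the log2 scale (limma adjusted p = 0.026). mirr had 272, 478, 382 and 359 RPM at 4 to 8 h, against 15.0, 32.6, 54.7 and 172 RPM at 0 to 4 h. mirr changed by 2.94 ± 0.62 SE on the log2 scale (limma adjusted p = 0.0257). mirr had the highest level of the 3, and its 3 to 4 h library was the closest to the later age. vvl, a POU factor of the tracheal primordia, had 11.9, 46.5, 72.01 and 38.6 RPM at 4 to 8 h, against 1.53, 2.24, 4.23 and 11.3 RPM at 0 to 4 h. In vvl the log2 change was 2.93 ± 0.65 SE (limma adjusted p = 0.029).

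Several lists of cell surface and matrix genes had rises. Among 38 innexins and adhesion receptors 10 rose and 1 fell (25 and 2 in the joint fit, 26 and 2 without 3 to 4 h, 7 and 1 in edgeR), with a median of 2.08. robo1, the Slit receptor of axons, had 113, 202, 186 and 245 RPM at 4 to 8 h, against 7.11, 12.2, 26.1 and 70.7 RPM at 0 to 4 h. The change in robo1 was 3.08 ± 0.61 SE on the log2 scale (limma adjusted p = 0.0238). Of 36 septate and adherens junction genes 5 rose and none fell (14 and 0 in the joint fit, 12 and 1 without 3 to 4 h, 5 and 0 in edgeR). Fas3, an adhesion protein of epithelia, had 88.5, 207, 380 and 301 RPM at 4 to 8 h, against 7.11, 21.2, 31.4 and 37.7 RPM at 0 to 4 h. Fas3 changed by 3.30 ± 0.58 SE on the log2 scale (limma adjusted p = 0.0205). Fas2, an adhesion protein of axons and epithelia, had 279, 169, 405 and 488 RPM at 4 to 8 h, against 33.6, 51.1, 56.1 and 80.0 RPM at 0 to 4 h. In Fas2 the log2 change was 2.54 ± 0.40 SE (limma adjusted p = 0.0205). nrv2, a sodium pump subunit of septate junctions, had 40.5, 120, 186 and 153 RPM at 4 to 8 h, against 5.80, 10.5, 16.6 and 31.2 RPM at 0 to 4 h. The change in nrv2 was 2.92 ± 0.59 SE on the log2 scale (limma adjusted p = 0.0242). In these 4 genes the lowest later library was above the highest earlier one. Of 24 integrin, laminin and basement membrane genes 8 rose and none fell (13 and 1 in the joint fit, 12 and 0 without 3 to 4 h), with a median of 2.01, while edgeR called 1. The laminin alpha chain gene LanA had 7.52, 15.8, 32.6 and 30.1 RPM at 4 to 8 h, against 0.328, 1.50, 2.47 and 5.48 RPM at 0 to 4 h. LanA changed by 2.74 ± 0.62 SE on the log2 scale (limma adjusted p = 0.0296). Mmp2, a matrix metalloprotease, had 11.3, 44.2, 68.3 and 24.3 RPM at 4 to 8 h, against 1.75, 5.98, 1.06 and 9.79 RPM at 0 to 4 h. In Mmp2 the log2 change was 2.79 ± 0.69 SE (limma adjusted p = 0.0356).

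Of 31 glycosylation and heparan sulfate genes 4 rose and none fell (9 in the joint fit, 5 without 3 to 4 h, 4 in edgeR), with a median of 0.05. Galt (CG9232, dm3 chromosome 2L, 6667781 to 6668049, minus strand) had 24.6, 42.6, 51.4 and 95.9 RPM at 4 to 8 h, against 0.984, 2.24, 2.47 and 7.70 RPM at 0 to 4 h. The change in Galt was 3.71 ± 0.56 SE on the log2 scale (limma adjusted p = 0.0205). Its enzyme belongs to the route that links galactose to UDP-sugars, and the gene was highest at 7 to 8 h. dally, a glypican, had 207, 460, 504 and 398 RPM at 4 to 8 h, against 20.3, 42.6, 72.3 and 265 RPM at 0 to 4 h, with the 3 to 4 h library inside the later range. dally changed by 2.51 ± 0.68 SE on the log2 scale (limma adjusted p = 0.0444). wbl, an endoplasmic reticulum protein in none of the lists, had 5.50, 7.098, 24.0 and 45.8 RPM at 4 to 8 h, against 0.765, 0, 0.706 and 1.05 RPM at 0 to 4 h. In wbl the log2 change was 3.32 ± 0.66 SE (limma adjusted p = 0.0238). Of 46 genes of endoplasmic reticulum translocation and coat vesicles 2 rose (8 in the joint fit, 4 higher and 1 lower without 3 to 4 h, 3 in edgeR), with a median of 0.63. The share called higher was below the background in the 8-library fit and without 3 to 4 h, and above it in the joint fit. Stt3B, a catalytic subunit of oligosaccharyltransferase, had 36.2, 38.6, 31.6 and 58.7 RPM at 4 to 8 h, against 11.3, 12.0, 4.94 and 16.3 RPM at 0 to 4 h. The change in Stt3B was 1.86 ± 0.42 SE on the log2 scale (limma adjusted p = 0.029).

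Signalling pathways changed through some of their ligands, receptors and effectors, and most members were not called. Among Wnt genes 4 of 27 rose (9 and 1 fall in the joint fit, 10 without 3 to 4 h, 2 in edgeR). The ligand gene Wnt4 had 9.84, 43.4, 48.0 and 31.5 RPM at 4 to 8 h, against 0.656, 0.747, 3.17 and 6.88 RPM at 0 to 4 h. Wnt4 changed by 3.24 ± 0.66 SE on the log2 scale (limma adjusted p = 0.0244). drl, a Ryk-type receptor, had 746, 767, 965 and 706 RPM at 4 to 8 h, against 26.9, 71.0, 95.9 and 373 RPM at 0 to 4 h. In drl the log2 change was 3.10 ± 0.64 SE (limma adjusted p = 0.0253). Among EGF and FGF genes 4 of 31 rose and 1 fell (11 and 3 in the joint fit, 14 and 3 without 3 to 4 h, 2 and 0 in edgeR). The EGF ligand gene spi had 812, 983, 851 and 517 RPM at 4 to 8 h, against 102, 170, 128 and 505 RPM at 0 to 4 h. The change in spi was 2.06 ± 0.47 SE on the log2 scale (limma adjusted p = 0.0303). Its transcriptional effector pnt had 144, 175, 208 and 172 RPM at 4 to 8 h, against 14.2, 24.9, 21.9 and 75.3 RPM at 0 to 4 h. pnt changed by 2.60 ± 0.46 SE on the log2 scale (limma adjusted p = 0.0205). The FGF receptor btl had 4.92, 3.15, 8.56 and 10.0 RPM at 4 to 8 h, against 0.219, 0.249, 0 and 0.933 RPM at 0 to 4 h. In btl the log2 change was 2.45 ± 0.48 SE (limma adjusted p = 0.0228). The 3 to 4 h level of spi was close to its 7 to 8 h level. Pvf3, a PDGF/VEGF-type ligand outside the lists, had 53.2, 103, 132 and 206 RPM at 4 to 8 h, against 3.83, 5.23, 13.1 and 51.9 RPM at 0 to 4 h. The change in Pvf3 was 3.19 ± 0.73 SE on the log2 scale (limma adjusted p = 0.0303).

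Of 20 Dpp and activin genes 2 rose and 2 fell (4 and 3 in the joint fit, 4 and 2 without 3 to 4 h, 2 and 2 in edgeR). gbb, a BMP ligand, had 37.9, 38.6, 45.8 and 55.8 RPM at 4 to 8 h, against 1.42, 5.23, 4.58 and 15.6 RPM at 0 to 4 h. gbb changed by 2.88 ± 0.55 SE on the log2 scale (limma adjusted p = 0.0216). Dad, the inhibitory Smad, had 26.6, 48.1, 59.2 and 130 RPM at 4 to 8 h, against 15.9, 17.2, 9.88 and 8.51 RPM at 0 to 4 h. In Dad the log2 change was 2.10 ± 0.49 SE (limma adjusted p = 0.0318). myo, an activin-type ligand, fell by a step at 4 h, with 18.5, 22.1, 18.1 and 15.7 RPM at 4 to 8 h, against 57.7, 58.8, 71.96 and 50.1 RPM at 0 to 4 h. The change in myo was -1.63 ± 0.29 SE on the log2 scale (limma adjusted p = 0.0205). The Hippo and Fat genes that rose numbered 3 among 21 JAK/STAT and Hippo members (6 and 1 fall in the joint fit, 5 and 1 without 3 to 4 h, 2 and 0 in edgeR). The atypical cadherin ft had 158, 345, 293 and 444 RPM at 4 to 8 h, against 9.84, 18.7, 53.3 and 116 RPM at 0 to 4 h. ft changed by 3.09 ± 0.68 SE on the log2 scale (limma adjusted p = 0.0287). fj, a Golgi kinase that acts on it, had 151, 192, 183 and 404 RPM at 4 to 8 h, against 7.66, 16.4, 32.8 and 88.8 RPM at 0 to 4 h. In fj the log2 change was 3.06 ± 0.65 SE (limma adjusted p = 0.0273). sd, the DNA-binding partner of Yorkie, had 66.2, 113, 115 and 95.9 RPM at 4 to 8 h, against 5.91, 8.97, 15.5 and 31.8 RPM at 0 to 4 h. The change in sd was 2.79 ± 0.48 SE on the log2 scale (limma adjusted p = 0.0205). Dlish, which acts downstream of Fat and is in no list, had 64.5, 66.2, 58.2 and 126 RPM at 4 to 8 h, against 1.42, 4.48, 9.17 and 30.4 RPM at 0 to 4 h. Dlish changed by 3.23 ± 0.70 SE on the log2 scale (limma adjusted p = 0.0274). In none of these 7 genes did the ages overlap.

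Of 24 Toll family and gastrulation genes 3 rose and 1 fell (5 and 4 in the joint fit, 6 and 4 without 3 to 4 h). In edgeR 0 rose and 1 fell, with 10 genes at an unadjusted p below 0.05. dl, the Rel protein that patterns the dorsoventral axis, had 0, 1.58, 1.18 and 0 RPM at 4 to 8 h, against 64.0, 88.4, 9.88 and 1.75 RPM at 0 to 4 h. In dl the log2 change was -3.73 ± 1.02 SE (limma adjusted p = 0.0464). Toll-6, a receptor of the germ band, had 552, 1088, 1058 and 590 RPM at 4 to 8 h, against 35.8, 86.4, 116 and 402 RPM at 0 to 4 h. The change in Toll-6 was 2.82 ± 0.63 SE on the log2 scale (limma adjusted p = 0.029). 18w had 188, 121, 149 and 206 RPM at 4 to 8 h, against 6.89, 13.4, 48.7 and 97.1 RPM at 0 to 4 h. 18w changed by 2.58 ± 0.70 SE on the log2 scale (limma adjusted p = 0.046). PGRP-LC and Cirl, which are in no list, also rose. PGRP-LC, the receptor of the Imd immune pathway, had 4.92, 13.4, 21.3 and 55.8 RPM at 4 to 8 h, against 0.656, 0.249, 0 and 3.62 RPM at 0 to 4 h. In PGRP-LC the log2 change was 3.37 ± 0.74 SE (limma adjusted p = 0.0285). Cirl, a latrophilin-type adhesion receptor, had 415, 391, 338 and 764 RPM at 4 to 8 h, against 16.4, 32.9, 73.0 and 124 RPM at 0 to 4 h. The change in Cirl was 3.23 ± 0.57 SE on the log2 scale (limma adjusted p = 0.0205).

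Of 17 apoptosis genes 3 rose and none fell (6 and 1 in the joint fit, 6 and 2 without 3 to 4 h, 1 and 1 in edgeR), and they stand on both sides of the pathway. Diap1, the caspase inhibitor (CG12284, dm3 chromosome 3L, 16039868 to 16040100, minus strand), had 1011, 1285, 1456 and 1307 RPM at 4 to 8 h, against 344, 340, 282 and 438 RPM at 0 to 4 h, a step at 4 h between a pair of fairly flat levels. Its means were 1265 ± 186 RPM at 4 to 8 h and 351 ± 64.5 RPM at 0 to 4 h (SD, n = 4 libraries each). Diap1 changed by 1.85 ± 0.24 SE on the log2 scale (limma adjusted p = 0.0205). skl, a killer gene that antagonises such inhibitors, had 12.2, 45.7, 40.6 and 20.0 RPM at 4 to 8 h, against 1.75, 1.74, 2.12 and 13.1 RPM at 0 to 4 h. In skl the log2 change was 2.67 ± 0.65 SE (limma adjusted p = 0.0353). wgn, a TNF receptor, had 21.1, 30.0, 34.8 and 41.5 RPM at 4 to 8 h, against 1.09, 3.74, 4.58 and 13.2 RPM at 0 to 4 h. The change in wgn was 2.59 ± 0.56 SE on the log2 scale (limma adjusted p = 0.0279). skl overlapped in 1 library. The autophagy and lysosome list had 3 rises and 5 falls among 47 (6 and 7 in the joint fit, 9 and 8 without 3 to 4 h, 1 and 3 in edgeR). The share called higher was close to the background of 5.46%, and in the joint fit to that of 12.4%. Without 3 to 4 h it was above the background of 11.8%. The share called lower was above the background in the 8-library fit, in the joint fit and without 3 to 4 h. Cln7, a lysosomal membrane protein, had 13.9, 32.3, 48.3 and 68.7 RPM at 4 to 8 h, against 1.20, 2.49, 4.23 and 7.00 RPM at 0 to 4 h. Cln7 changed by 3.09 ± 0.58 SE on the log2 scale (limma adjusted p = 0.0211). Vha68-2, a catalytic V-ATPase subunit, had 6.08, 25.2, 29.7 and 41.5 RPM at 4 to 8 h, against 276, 214, 132 and 35.2 RPM at 0 to 4 h. In Vha68-2 the log2 change was -2.55 ± 0.72 SE (limma adjusted p = 0.0491).

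Another 5 genes were among the same 15 highest changes outside the lists. Cyt-b5-r, a cytochrome b5 relative, had 16.8, 18.9, 27.4 and 91.6 RPM at 4 to 8 h, against 0.109, 1.50, 2.82 and 2.80 RPM at 0 to 4 h. The change in Cyt-b5-r was 3.62 ± 0.63 SE on the log2 scale (limma adjusted p = 0.0205). Bhmt, which remethylates homocysteine, had 9.55, 22.9, 24.8 and 51.5 RPM at 4 to 8 h, against 0.219, 1.74, 2.12 and 2.68 RPM at 0 to 4 h. Bhmt changed by 3.28 ± 0.57 SE on the log2 scale (limma adjusted p = 0.0205). Lip4, a lipase, had 8.97, 51.3, 55.1 and 68.7 RPM at 4 to 8 h, against 0.875, 3.99, 2.12 and 7.70 RPM at 0 to 4 h. In Lip4 the log2 change was 3.24 ± 0.70 SE (limma adjusted p = 0.0274). All 3 were highest at 7 to 8 h. MFS1, a transporter, had 44.0, 38.6, 32.2 and 85.9 RPM at 4 to 8 h, against 1.75, 3.49, 4.58 and 6.53 RPM at 0 to 4 h. The change in MFS1 was 3.32 ± 0.46 SE on the log2 scale (limma adjusted p = 0.0205). Orct, an organic cation transporter, had 14.2, 37.1, 72.2 and 61.5 RPM at 4 to 8 h, against 1.09, 3.99, 6.35 and 2.80 RPM at 0 to 4 h. Orct changed by 3.29 ± 0.59 SE on the log2 scale (limma adjusted p = 0.0205). Among 23 nuclear receptor and ecdysone synthesis genes 3 rose and 1 fell (4 and 2 in the joint fit, 6 and 2 without 3 to 4 h, 3 and 1 in edgeR). svp, a nuclear receptor of neuroblasts and the heart, had 7.81, 16.6, 22.7 and 14.3 RPM at 4 to 8 h, against 0.765, 1.74, 1.06 and 3.38 RPM at 0 to 4 h. In svp the log2 change was 2.58 ± 0.48 SE (limma adjusted p = 0.0205). eg, a zinc finger factor of neuroblasts, had 1.74, 6.31, 9.23 and 17.2 RPM at 4 to 8 h, against 0, 0.249, 0 and 0.933 RPM at 0 to 4 h. The change in eg was 2.65 ± 0.61 SE on the log2 scale (limma adjusted p = 0.0305). ftz-f1, supplied to the egg, had 50.9, 63.9, 57.6 and 25.8 RPM at 4 to 8 h, against 291, 267, 417 and 70.5 RPM at 0 to 4 h. ftz-f1 changed by -2.20 ± 0.54 SE on the log2 scale (limma adjusted p = 0.0356).

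Some gene pairs encode similar proteins, with the first copy used in the germ line or egg. Of 38 tested members of such pairs 9 fell and 3 rose (12 and 6 in the joint fit, 11 and 7 without 3 to 4 h, 10 and 1 in edgeR). bru1 fell, as given above, and bru2 rose, with 13.3, 23.7, 41.5 and 53.0 RPM at 4 to 8 h, against 0.984, 2.74, 4.23 and 12.8 RPM at 0 to 4 h. In bru2 the log2 change was 2.64 ± 0.65 SE (limma adjusted p = 0.0356). gammaTub37C, the gamma-tubulin of the egg, had 0.579, 0, 0.336 and 0 RPM at 4 to 8 h, against 36.6, 25.4, 3.88 and 1.98 RPM at 0 to 4 h. The change in gammaTub37C was -3.19 ± 0.80 SE on the log2 scale (limma adjusted p = 0.038). gammaTub23C had 49.2, 32.3, 47.0 and 21.5 RPM at 4 to 8 h, against 66.5, 73.0, 62.1 and 65.3 RPM at 0 to 4 h and was not called (limma adjusted p = 0.106). zpg, the germ line innexin, had 0.579, 2.37, 0.671 and 0 RPM at 4 to 8 h, against 163, 64.3, 20.5 and 1.63 RPM at 0 to 4 h. zpg changed by -4.01 ± 1.09 SE on the log2 scale (limma adjusted p = 0.0462). Inx2, an innexin of epithelia, had 166, 141, 167 and 188 RPM at 4 to 8 h, against 22.1, 12.0, 70.5 and 112 RPM at 0 to 4 h, not called here (limma adjusted p = 0.0553) and higher in the joint fit. betaTub60D, a beta-tubulin of differentiating tissues, rose, with 11.0, 44.2, 58.1 and 31.5 RPM at 4 to 8 h, against 2.41, 5.98, 8.11 and 8.51 RPM at 0 to 4 h. In betaTub60D the log2 change was 2.25 ± 0.57 SE (limma adjusted p = 0.038). Whether the members of a pair differed from each other was not tested, and reads shared between similar copies would blur such values.

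Limma called 1 of 82 cytoplasmic ribosomal proteins, RpLP0-like, and 0 of 71 mitochondrial ribosomal proteins, 0 of 42 translation factors, 0 of 42 nuclear pore and transport genes and 0 of 39 Polycomb, trithorax and remodelling genes. RpLP0-like had 180, 147, 154 and 255 RPM at 4 to 8 h, against 84.5, 96.7, 69.8 and 71.7 RPM at 0 to 4 h. The change in RpLP0-like was 1.16 ± 0.28 SE on the log2 scale (limma adjusted p = 0.0344). At an unadjusted p below 0.05 there were 7, 2, 5, 3 and 8 genes in these 5 lists, the joint fit called 2, 2, 1, 1 and 3, edgeR 1, 0, 0, 0 and 0, and DESeq2 1, 0, 0, 1 and 1. Without the 3 to 4 h library 2, 1, 2, 1 and 8 were called, and of the 8 in the Polycomb list 6 were higher and 2 lower. The median log2 changes were 0.10, -0.08, 0.14, -0.16 and -0.18. Of 55 spliceosome and mRNA processing genes 2 rose and none fell (3 in the joint fit, 6 without 3 to 4 h, 1 in edgeR). B52, which encodes an SR protein, had 274, 310, 239 and 216 RPM at 4 to 8 h, against 93.2, 76.5, 106 and 161 RPM at 0 to 4 h. B52 changed by 1.29 ± 0.29 SE on the log2 scale (limma adjusted p = 0.0303). Among 46 ribosome biogenesis genes 1 rose and none fell (5 and 1 in the joint fit, 5 and 2 without 3 to 4 h, 1 and 0 in edgeR). The gene called, Nop10, had 249, 146, 273 and 524 RPM at 4 to 8 h, against 79.3, 59.5, 108 and 128 RPM at 0 to 4 h. In Nop10 the log2 change was 1.57 ± 0.41 SE (limma adjusted p = 0.0413). In each of these lists the share called in the 8-library fit is below the background of 5.46% in each direction. In the remaining lists, 1 of 31 tRNA synthetases, 2 of 29 chaperonin and heat shock genes and 2 of 30 centrosome genes fell. Of 26 histone variant and assembly genes 2 fell and 1 rose, and 1 of 14 Hedgehog genes rose. The share called lower was above the background of 5.46% in the chaperonin, centrosome and histone lists. The share called higher was above it in the Hedgehog list. These shares rest on 1 or 2 genes each. The joint fit called 5 falls in the synthetase list, 8 falls and 1 rise in the chaperonin list, 4 and 1 in the centrosome list, 3 and 1 in the histone list and 4 rises in the Hedgehog list. Without 3 to 4 h these were 5 falls, 8 and 1, 5 and 1, 3 and 2 and 4 rises. Falls in the synthetase, chaperonin and centrosome lists were above the background in share in both fits (11.6 and 12.5%). Those in the histone list were below it. The Hedgehog rises were above the background in both fits (12.4 and 11.8%). In edgeR, 2 fell in each of the chaperonin, centrosome and histone lists and 0 were called in the synthetase and Hedgehog lists, with 5 and 3 genes at an unadjusted p below 0.05.

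Noncoding RNA genes rose in 6 and fell in 3 of 42 tested cases (19 and 6 in the joint fit, 16 and 7 without 3 to 4 h, 3 and 3 in edgeR), with a median of 1.21. lncRNA:CR42491 had 60.5, 47.3, 66.6 and 286 RPM at 4 to 8 h, against 2.62, 2.99, 7.05 and 11.9 RPM at 0 to 4 h. The change in lncRNA:CR42491 was 3.81 ± 0.64 SE on the log2 scale (limma adjusted p = 0.0205). lncRNA:CR30009 had 61.6, 155, 262 and 235 RPM at 4 to 8 h, against 6.78, 11.0, 31.4 and 39.2 RPM at 0 to 4 h. lncRNA:CR30009 changed by 3.07 ± 0.63 SE on the log2 scale (limma adjusted p = 0.0244). lncRNA:roX2, which guides the dosage compensation complex to the X chromosome, had 41.7, 100, 137 and 296 RPM at 4 to 8 h, against 1.75, 7.97, 29.3 and 38.01 RPM at 0 to 4 h and was the member called among 22 sex determination and dosage compensation genes (1 rise and 1 fall in the joint fit and without 3 to 4 h, 0 in edgeR with 3 at an unadjusted p below 0.05). In lncRNA:roX2 the log2 change was 3.14 ± 0.86 SE (limma adjusted p = 0.0465). A further 137 genes called higher and 160 called lower carry no name beyond a CG or CR number.

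**Figure D4:**
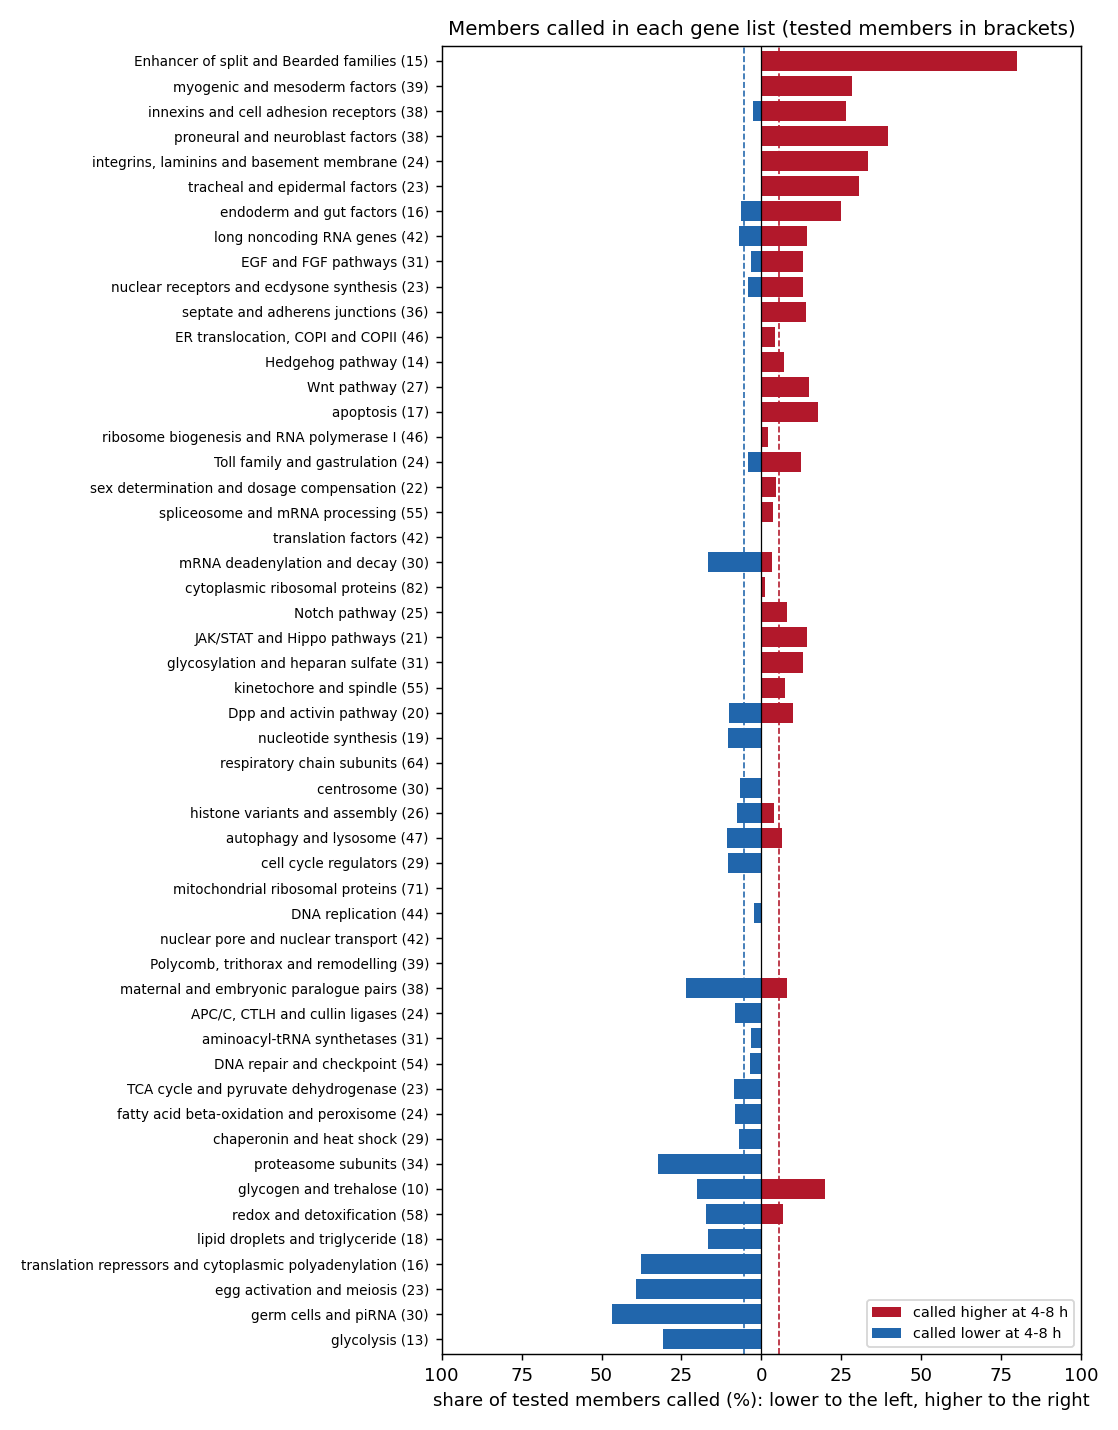
Share of the tested members of each gene list called higher (red, to the right) or lower (blue, to the left) at 4 to 8 h, with lists ordered by their median log2 change and tested members in brackets. Dashed lines mark the 5.46% of all genes called in each direction; 12 of 15 Enhancer of split and Bearded genes stand at the top and 4 of 13 glycolysis genes at the bottom.

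After 8 h the called genes followed different courses. The genes called lower had a median of 10.3 RPM at 4 to 8 h, against 83.3 RPM at 0 to 4 h, and of 16.2, 19.9, 17.4 and 20.1 RPM at 8 to 12, 12 to 16, 16 to 20 and 20 to 24 h. Of these genes 62 (14.9%) returned to their 0 to 4 h mean in a later period, and 252 (60.7%) stayed below 50% of it in every later one. The shares over all genes tested were 50.8 and 17.6%. The genes called lower were selected for a 0 to 4 h level above that at 4 to 8 h, so these shares are given as a description. A later period above 4 to 8 h was found for 68.0% of the genes called higher, 73.3% of those called lower and 58.4% of all. In adults, sequenced in another multiplexed library and as 1 library a sex, 206 of the genes called lower (49.6%) were at least 2-fold higher in females, against 11.6% of the genes called higher and 35.6% of all genes tested. At least 2-fold higher in males were 147 of the genes called higher (35.4%), against 5.3% of those called lower and 12.5% of all.

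**Figure D5:**
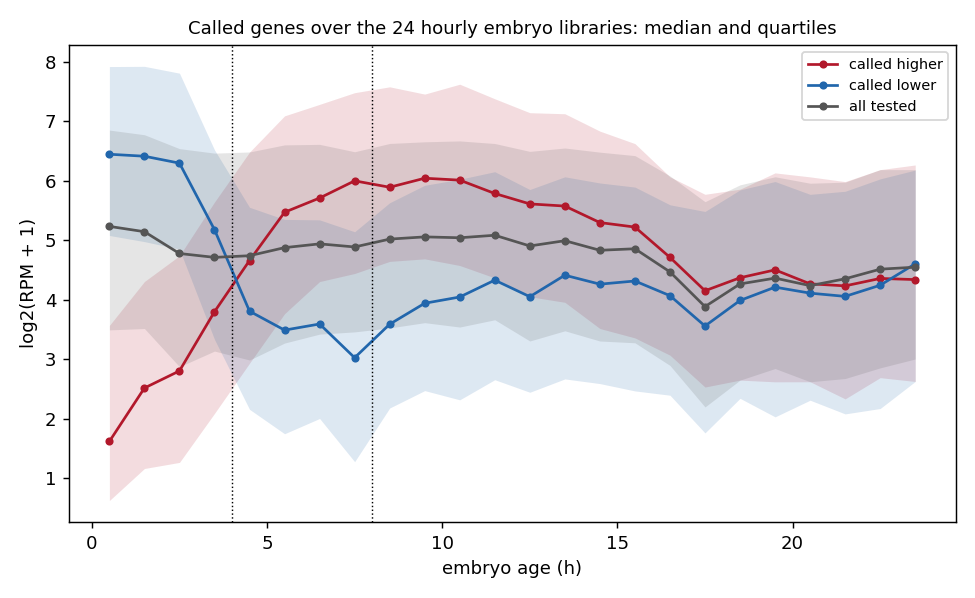
Median (line) and quartiles (band) of log2(RPM + 1) over the 24 hourly embryo libraries for the 415 genes called higher at 4 to 8 h, the 415 called lower and all 7594 tested. Dotted lines mark 4 and 8 h; the genes called lower had period medians of 10.3 RPM at 4 to 8 h and 20.1 RPM at 20 to 24 h, and the genes called higher 46.1 and 19.4 RPM.

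The structure of the genes also differed in description. Gene models were found for 92.5% of the genes called higher, 96.4% of those called lower and 94.4% of all tested. The median gene span was 6098 bases for genes called higher and 2730 bases for genes called lower, against 2860 bases for all, and the median coding length was 1605, 1254 and 1368 bases in the same order. More than 1 start-site peak was listed for 63.6% of the genes called higher, 53.0% of those called lower and 54.5% of all. The X chromosome held 13.0% of the genes called higher and 20.5% of those called lower, against 16.8% of all. By set it held 14.6% of the genes lower by 2 to 3 h, 26.7% of those first lower at 3 to 4 h, 20.4% of those held to 4 h and 8.0% of the 25 raised at 2 to 4 h. None of these shares was tested.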

How the data were processed

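The deposited gene table gives RPM (start-site reads per 1000000) of 12698 genes in 1 column per library, and each of the 8 columns used summed to 1000000 RPM. The submitters' processing notes name STAR, Cufflinks and the dm3 build, without version or role. Peak positions on dm3 come from a list the authors deposited, whose score has no stated meaning in the sources used here and served to pick each gene's main peak; starts are counted from 1. All columns used belong to a sample (0 columns do not). Whole reads were recovered from the RPM steps: within 0.01 of a read, 100.0% of values came out whole in each library. The counting of reads and any removal of duplicates are not given in the sources used here.

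Values were taken as log2(RPM + 1), a scale that understates changes of low genes, and genes reaching 2 RPM in 3 or more of the 8 libraries entered limma 3.58.1 (lmFit, eBayes with trend) in R 4.3.3, with 6 residual degrees of freedom. Calls needed a Benjamini-Hochberg adjusted p below 0.05 over all genes tested and a 2-fold change. p-values measure the spread between hourly windows. Tested on simulated data for this comparison, with 7594 genes, the fit called 195 of 200 genes changed 4-fold and 13 others. The simulated libraries of an age were independent replicates without change inside the group, unlike the hourly windows here. These counts therefore check the code and do not give the power or error rate in the real data. edgeR 4.0.16 and DESeq2 1.42.0 on recovered reads called 607 and 1396 genes, with 525 and 784 of the 830 main calls among them. Symbols matched 12089 of 12698 identifiers. Gene spans, exons and coding lengths come from an Ensembl annotation of a later build and carry no positions.

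The comparison, the 55 gene lists and the tests were chosen with earlier results of these data known. The naming rule took up to 4 called members per list by size of change, up to 2 of the highest level where none was called, both members of a pair where either was called, and outside the lists the 15 highest and 15 lowest changes without overlap at 20 RPM or more. Some genes that met the rule are not reported here. A median per list stands in for a test of the list. Genes at near-identical loci share reads and are uncertain. Sequences, and protein and promoter features, were not analysed here.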

Additional observations from a re-analysis of the deposited data

Results flagged for a closer look

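On the log2 scale, 1 library stood far from the other 3 of its age in 19 of the 284 groups of 4 values behind the genes named, by Dixon's test at 95%; chance flags about 1 group in 20. At 4 to 8 h, the 4 to 5 h library was apart in 11 genes. It was high for pgc (13.0 RPM), awd (351 RPM), term (2.89 RPM), CycJ (0.868 RPM), Elba1 (0.579 RPM), zen (0.579 RPM), png (0.289 RPM) and Sry-alpha (0.289 RPM), the last 5 being 3 reads or fewer. It was low for Lip4 (8.97 RPM), caup (6.08 RPM) and Calr (223 RPM), which rose later in the window. The 7 to 8 h library, the shallowest, was low for Prosalpha2 (34.4 RPM), BigH1 (15.7 RPM) and rhi (2.86 RPM) and high for Dlish (126 RPM). The 6 to 7 h library had the otu reads of that age (0.504 RPM), and the other 3 were at 0. At 0 to 4 h, the 3 to 4 h library, which holds late cuticle transcripts, was low for Cp110 (68.8 RPM) and high for insc (15.5 RPM) and skl (13.1 RPM). Whether age, depth or those transcripts had a part in these values was not tested.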

How the results depend on the processing

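Of the 830 genes called, 415 higher and 415 lower, the counts changed by at most 1.5 times with an added constant of 0.5 (792) or 5 (701), a minimum of 10 RPM (671 of 6142), median-of-ratios scaling (828), robust variances (792), no fold threshold (836) and edgeR (607, though 246 higher). They moved further in 3 settings: 1823 (942 higher, 881 lower) in the joint fit of 24 libraries, 1396 (645, 751) with DESeq2 and 477 (250, 227) with no minimum. List genes called numbered 218, against 445, 339 and 120 in those settings. Leaving out 1 library gave 0 to 1849 genes (0 to 898 higher, 0 to 951 lower; 0 to 460 list genes). Chosen after seeing the data, the same in the joint fit gave 1288 to 2404 (671 to 1164, 617 to 1240; 330 to 563) and in edgeR 0 to 1786 (0 to 946, 0 to 840; 0 to 460). The cause was not tested. All 830 kept their direction in each of these settings that tested them; the 10 RPM minimum tested 703. Scaling moved the median log2 change of all genes to -0.002, against -0.06 as deposited. Among the 7 to 8 h values, 1 read is 1.43 RPM, which limits low genes most. No paired analysis was possible, because the labels link no single younger window to a single older window by animal, batch or day. The sample numbers follow age order. The embryo libraries shared a multiplexed library, which pairs none of them.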

Other observations

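Further genes that met the naming rule and were not described above rose in the adhesion, secretion and patterning lists. Nrx-IV, a neurexin of septate junctions, had 98.1, 174, 209 and 482 RPM at 4 to 8 h, against 80.3, 66.5, 10.6 and 32.6 RPM at 0 to 4 h, with the lowest of the earlier libraries at 2 to 3 h. The change in Nrx-IV was 2.42 ± 0.66 SE on the log2 scale (limma adjusted p = 0.0462). Calr, the chaperone calreticulin, had 223, 565, 636 and 643 RPM at 4 to 8 h, against 162, 194, 103 and 249 RPM at 0 to 4 h, and its 4 to 5 h library overlapped the younger age. Calr changed by 1.49 ± 0.41 SE on the log2 scale (limma adjusted p = 0.0465). Dr, a homeobox gene of the lateral nervous system, had 7.52, 8.68, 23.5 and 18.6 RPM at 4 to 8 h, against 1.09, 2.24, 0.706 and 2.10 RPM at 0 to 4 h. In Dr the log2 change was 2.53 ± 0.49 SE (limma adjusted p = 0.0216). otp, a homeobox gene of the hindgut, had 8.97, 4.73, 9.06 and 22.9 RPM at 4 to 8 h, against 0, 1.25, 0.353 and 3.15 RPM at 0 to 4 h. The change in otp was 2.52 ± 0.60 SE on the log2 scale (limma adjusted p = 0.0338). Toll-7 had 124, 380, 319 and 84.4 RPM at 4 to 8 h, against 6.12, 29.1, 20.5 and 79.9 RPM at 0 to 4 h and was highest at 5 to 6 h. Toll-7 changed by 2.94 ± 0.73 SE on the log2 scale (limma adjusted p = 0.0375). otk, a pseudokinase receptor, had 23.1, 78.9, 128 and 75.8 RPM at 4 to 8 h, against 3.83, 10.7, 8.46 and 36.3 RPM at 0 to 4 h, with the 3 to 4 h library above the 4 to 5 h library. In otk the log2 change was 2.48 ± 0.68 SE (limma adjusted p = 0.0469).

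Among the pairs of similar genes, alphaTub67C, the egg's alpha-tubulin, had 2.31, 1.58, 0.504 and 0 RPM at 4 to 8 h, against 222, 170, 10.6 and 2.10 RPM at 0 to 4 h and did not pass here (limma adjusted p = 0.0571), while the joint fit of 24 libraries called it lower. RpS5b, a ribosomal protein copy of the germ line, had 106, 176, 153 and 31.5 RPM at 4 to 8 h, against 307, 273, 216 and 273 RPM at 0 to 4 h (limma adjusted p = 0.0829), and its ages did not overlap. RpS5a, the other copy, had 310, 300, 388 and 554 RPM at 4 to 8 h, against 180, 83.5, 244 and 311 RPM at 0 to 4 h (limma adjusted p = 0.127). Neither copy was called, and their difference was not tested.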
